A study of Mus musculus with 6 samples.

Results

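The expression profile of MLE-12 cells that carried only the empty vector was described across all measured genes, without reference to the NR4A1 overexpression cultures of the same study. MLE-12 is an immortalised mouse lung epithelial line that was established from a tumour driven by SV40 large T antigen under the human surfactant protein C promoter. Empty pCMV-SPORT6 was introduced with Lipofectamine, so every library described here comes from lipofected cells with a vector and none from untreated cells. The members were the 3 vector control samples, named replicates 1, 2 and 3, of 6 samples in the series, and they were chosen by their treatment label alone. The labels do not say whether the 3 were separate cultures, and the spread between them may therefore be partly technical. The time between transfection and RNA extraction is not given in the sources used here.

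The lung epithelium holds several cell types with distinct RNA. Alveolar type 2 cells make surfactant and divide, alveolar type 1 cells are thin and carry gas exchange, and club, ciliated, goblet, basal and neuroendocrine cells line the airways. The factor NKX2-1 is active in the whole lung epithelium and is known to drive surfactant genes.

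Replicates 1, 2 and 3 held 17224436, 16578881 and 17574340 counted reads over 34745 genes. The detection floor was set at 3 counts, which is between 0.171 and 0.181 CPM (counts scaled to a common library total), and this limit covers counting error only. FPKM, the count scaled to gene length and to the library's total, was used wherever levels of different genes are set side by side. In bulk RNA, fewer cells with a transcript and less of it per cell cannot be told apart. Replicate 1 held a set of matrix genes that the other libraries almost lacked, and replicate 2 had lower values for long genes, and both patterns are described after the levels.

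In all 3 libraries together, 10506 of 34745 genes (30.2%) reached an FPKM of at least 1 and are called expressed. A further 7351 genes were counted without reaching that level, and 16888 genes (48.6%) had 0 counts in every library. The median of the expressed genes was 8.31 FPKM, with 2.15 FPKM at the 10th and 43.1 FPKM at the 90th percentile, while the median over all genes was 0.00634 FPKM. By level, 5866 expressed genes had a mean FPKM between 1 and 10, 4286 lay between 10 and 100, 319 between 100 and 1000, and 35 above that. Of the 21620 nuclear protein-coding genes of the table, 9985 (46.2%) were expressed, a background share for the lists of such genes below. They took 90.9% ± 0.299 of the counts (SD, n = 3), and the 13 mitochondrially encoded genes took 5.95% ± 0.193. Pseudogene entries took 2.18% ± 0.180, and long intergenic RNAs took 0.505% ± 0.0778. The 100 most counted genes held 18.3% ± 0.596 of each library's counts, and the 10 most counted held 7.19% ± 0.279.

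Families that belong to other tissues show the level of the background. None of 1104 olfactory receptor genes, 329 vomeronasal receptor genes and 514 immunoglobulin and T cell receptor segments was expressed. Among the olfactory receptors 1092 had 0 counts in every library, and their summed level was between 0.692 and 1.03 FPKM per library.

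**Figure D1:**
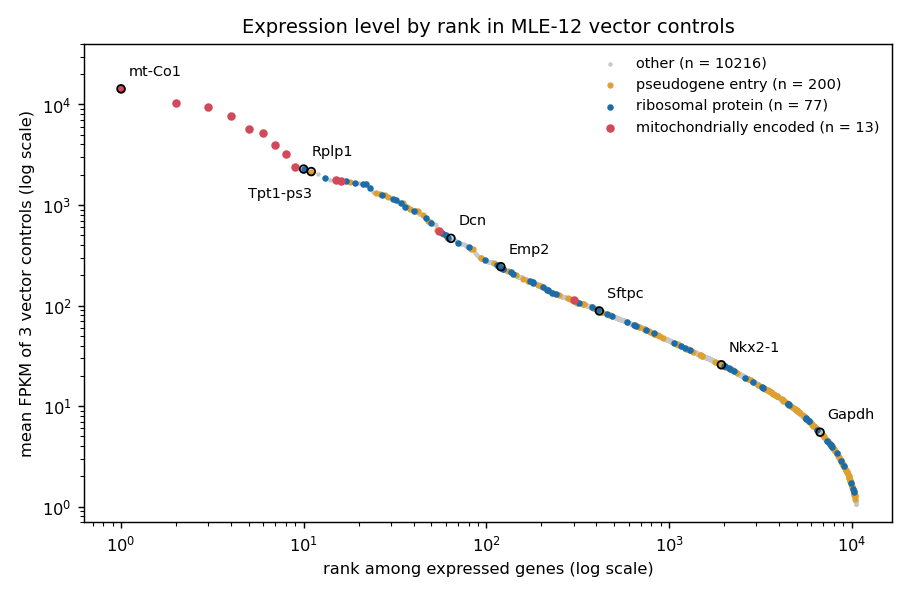
Mean FPKM over the 3 vector controls (log scale) against the rank of the gene among the 10506 expressed genes (log scale), 1 point per gene, coloured as mitochondrially encoded, ribosomal protein, pseudogene entry or other, with 8 genes circled and named. Mitochondrially encoded genes hold the ranks above Rplp1, Dcn, Emp2 and Sftpc stand above 80 FPKM, and Gapdh lies near 5 FPKM.

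The highest levels belonged to the respiratory chain and to translation. Of the 20 protein-coding genes with the highest FPKM, 11 were mitochondrially encoded. Cytochrome c oxidase subunit 1, mt-Co1, led with 14277, 15084 and 13629 FPKM in replicates 1, 2 and 3, followed by the ATP synthase subunits mt-Atp8 with 10428 ± 525 FPKM and mt-Atp6 with 9397 ± 454 FPKM (SD, n = 3). The highest library was at most 1.39-fold above the lowest among the mitochondrially encoded genes of this group, for mt-Nd4l. Among nuclear protein-coding genes, the ribosomal stalk protein Rplp1 came first with 2278 ± 186 FPKM. It was followed by the elongation factor Eef1a1 with 2057 ± 94.3 FPKM, Rpl4 with 1857 ± 177 FPKM and the elongation factor Eef2 with 1770 ± 15.5 FPKM. Rps15, Rpsa, Gm10260, Rpl8 and Rpl13a completed the 20. With merged exons the order differed, with Eef1a1 at 4618 FPKM above Rps15 at 2311 FPKM and Rplp1 at 2259 FPKM. Counted as reads, mt-Co1 took 2.21% and Eef1a1 1.15% of each library on average, and mt-Cytb, mt-Co2, mt-Co3, mt-Nd4 and mt-Nd5 were also among the 10 most counted genes. Below these, and named after their values were seen, stood the ferritin heavy chain Fth1 with 1341 ± 154 FPKM, the pyruvate kinase Pkm with 900 ± 52.9 FPKM, the galectin Lgals1 with 817 ± 74.8 FPKM and the MHC class I light chain B2m with 650 ± 35.7 FPKM. This order also rests on the deposited lengths, since with merged exons Fth1 had 335 FPKM, Pkm 467 FPKM, Lgals1 724 FPKM and B2m 650 FPKM. The stearoyl-CoA desaturase Scd2, which makes monounsaturated fatty acids, reached 462 ± 22.4 FPKM.

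Of 84 ribosomal protein genes, 77 were expressed, with a median of 66.3 FPKM over the family. Their levels spread over more than 3 orders of magnitude, although the ribosome holds about equal numbers of these proteins. Rps13 with 0.428 FPKM, Rpl9 with 0.822 FPKM and Rps27 with 0.831 FPKM were below the threshold for expression, as were the rarely used paralogs Rpl3l, Rps4l, Rpl10l and Rpl39l. Retrotransposed copies of such genes were counted beside their parents. The entry Rpl23a-ps3 had 1683 FPKM and its parent gene Rpl23a 2.85 FPKM, and Rpl27-ps3 had 1190 FPKM against 10.5 FPKM for Rpl27. Tpt1-ps3, a copy of the translationally controlled tumour protein gene, had 18021, 20925 and 18289 counts, while Tpt1 had 2374, 2447 and 2389. In the transcripts of GENCODE M21, 100% of the 50-base stretches of Tpt1-ps3 also occur in another gene, and so do 88.3% of those of Rpl23a-ps3. Of 156 parent genes with a named pseudogene entry and at least 100 counts for the sum, 14 (8.97%) had more reads on the entries than on the parent gene. The pseudogene Gm10925 on chromosome 1, annotated as unprocessed and so not as a retrotransposed copy, was counted 13789, 15985 and 13977 times. All of its 50-base stretches occur in another gene. The same holds for 100%, 99.9% and 99.5% of the stretches of mt-Co2, mt-Co3 and mt-Atp6, and for none of those of mt-Atp8, mt-Cytb and mt-Nd1. Reads of identical stretches can be placed on either copy, so the level of a single gene with such copies is uncertain here.

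**Figure D2:**
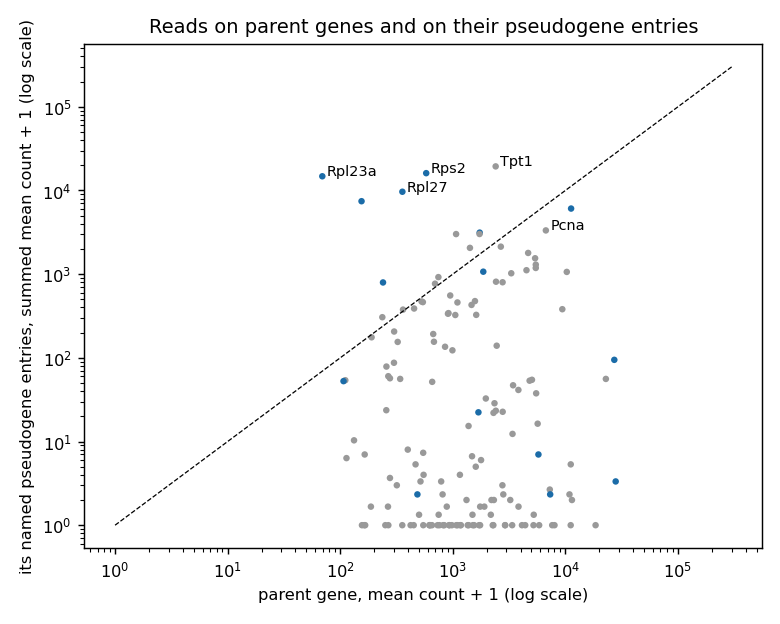
Summed mean count plus 1 of the pseudogene entries that carry a parent gene's symbol (vertical, log scale) against the mean count plus 1 of that parent (horizontal, log scale), for 156 parents, with ribosomal proteins in blue, others in grey and a dashed line at equality. For Tpt1, Rps2, Rpl27 and Rpl23a the entries hold more reads than the parent, and most parents lie below the line.

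The same caution holds for genes that are used as internal references in RT-qPCR. All 13 were expressed. Gapdh, which codes for a glycolytic enzyme and is usually abundant, had only 4.96, 5.66 and 5.85 FPKM from 737, 809 and 887 counts, and the cyclophilin Ppia had 4.41 ± 0.194 FPKM. B2m and Rplp0 were the highest with 650 ± 35.7 and 878 ± 98.0 FPKM. Within the glycolysis list, where all 15 genes were expressed with a median of 51.1 FPKM, Gapdh was far below its pathway neighbours Tpi1 (410 ± 20.6 FPKM), Pgk1 (356 ± 32.9 FPKM) and Ldha (292 ± 25.3 FPKM). Of the 50-base stretches of Gapdh, 24.7% also occur in another gene. Its 2 named pseudogene entries had only 1, 2 and 1 counts, unlike those of Tpt1 and Rpl23a. The part of such stretches in its low count was not tested. Tbp, Sdha and Gusb varied least relative to their means among the reference genes, with SDs of 0.0179, 0.514 and 0.0516 FPKM around means of 2.62, 38.5 and 7.15 FPKM.

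The deposited gene lengths also move levels between genes. The length behind each FPKM was obtained from the count and the FPKM and was the same in every library. Over 11745 genes it was in the median 1.24 times the merged exon length of GENCODE M21, and for 727 genes (6.19%) it exceeded the span of the whole gene. The length behind Gapdh was 8626 bases, against a merged exon length of 4133 bases and a span of 4753 bases. With merged exon lengths Gapdh had 11.5 FPKM and the cytoskeletal actin Actb 231 FPKM in place of 105 FPKM. Emp2 and Dcn fell to 96.9 and 166 FPKM, since their merged exons are longer than the deposited length. Over 10476 expressed genes the values on both length scales had a Spearman correlation of 0.914. Levels are given on the deposited scale, with the merged exon value added for some of the genes where it differs by over 1.5 times.

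Alveolar type 2 genes were present in part. Of 13 markers 5 (38.5%) were expressed, against 46.2% of nuclear protein-coding genes, and the list's median was 0.550 FPKM. Surfactant protein C, Sftpc (ENSMUSG00000022097, chromosome 14 from 70520941 to 70524081, GRCm38), had 76.1, 99.1 and 89.7 FPKM and rank 415 of all genes. The 3 libraries were within 1.29-fold of each other for Sftpc. Lpcat1, which makes the surfactant lipid dipalmitoylphosphatidylcholine, had 17.5 ± 0.201 FPKM. The lamellar body lipid transporter Abca3 had 11.4 ± 0.580 FPKM, surfactant protein B (Sftpb) 5.96 ± 0.398 FPKM, or 9.34 FPKM with merged exons, and the transcription factor Etv5 4.61 ± 0.308 FPKM. The surfactant collectins Sftpa1 and Sftpd and the phosphate transporter Slc34a2 had 0 counts in all libraries, which at these depths allows up to 0.181 CPM. Lamp3 with 2, 3 and 6 counts, the aspartic protease Napsa with 0.550 FPKM, Lyz2 with 12, 1 and 1 counts and the mucin Muc1 with 0.227 FPKM were counted at low levels. The line thus carried RNA of the surfactant protein genes Sftpc and Sftpb and of lipid genes of type 2 cells without several of the type 2 markers.

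Alveolar type 1 markers were more complete. Of 12 genes 10 (83.3%) were expressed, against 46.2% of nuclear protein-coding genes, and the list's median was 18.5 FPKM. The tetraspan protein Emp2 led with 240, 244 and 246 FPKM, and the retinoic acid induced receptor Gprc5a followed with 110 ± 4.49 FPKM. With merged exons Emp2 had 96.9 FPKM and did not lead, and Gprc5a remained at 110 FPKM. The water channel Aqp5 had 48.9, 41.6 and 39.8 FPKM. The receptor for advanced glycation end products, Ager, had 18.2 ± 2.03 FPKM on the deposited length and 51.2 FPKM with merged exons. Clic5, podoplanin (Pdpn) and caveolin 1 (Cav1) had 20.4 ± 1.71, 18.9 ± 0.901 and 11.5 ± 2.18 FPKM. With merged exons their order was reversed, at 13.6, 22.6 and 28.1 FPKM. The homeobox gene Hopx had 18.6, 22.7 and 28.9 FPKM, a wider spread than its neighbours in the list. Akap5 and Spock2 stayed under 0.2 FPKM.

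Airway markers were largely absent. Of 9 club cell genes only the aldehyde dehydrogenase Aldh1a1 was expressed, with 14.5 ± 1.20 FPKM, or 6.01 FPKM with merged exons, and Scgb1a1, Scgb3a1, Scgb3a2 and Cyp2f2 had 0 counts. Among 10 ciliated cell genes only the tubulin binding protein Tppp3 passed, with 2.52 ± 0.611 FPKM, and Foxj1, the master factor of motile cilia, had 8, 8 and 11 counts. Among 6 goblet cell genes the mucin Muc5b had 7.98, 4.97 and 7.80 FPKM, with replicate 2 below the others, while the goblet cell factor Spdef had at most 2 counts. Of 8 neuroendocrine genes only the ubiquitin hydrolase Uchl1 was expressed (18.7 ± 1.06 FPKM), and Calca had 0 counts. None of 6 basal cell genes was expressed, and Trp63 and Krt5 had at most 9 and 1 counts. Markers of endothelial, immune and erythroid cells were also low. Of 12 endothelial genes only Plvap passed, with 1.74 ± 0.331 FPKM, and Cdh5, Kdr, Tie1, Emcn, Erg, Sox17 and Cldn5 had 0 counts. None of 13 immune genes was expressed in all libraries, with Ptprc at 0, 1 and 0 counts and the lysosomal protein Cd68 at 32, 53 and 33. None of 7 erythroid genes was expressed, and the highest, Hba-a1, had at most 10 counts.

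**Figure D3:**
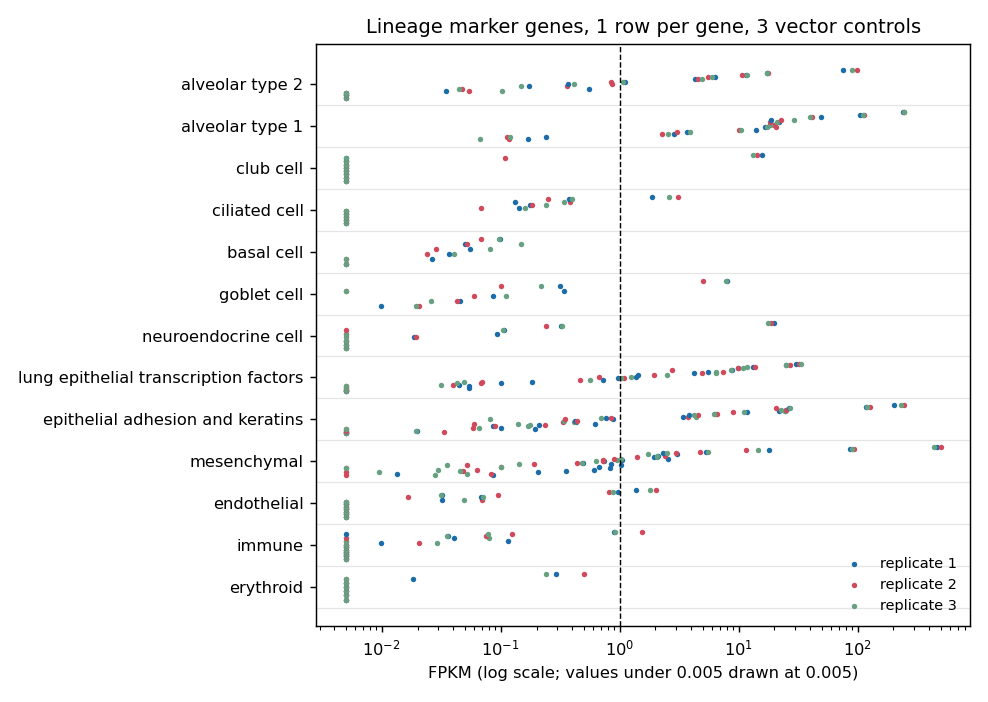
FPKM (log scale, values under 0.005 drawn at 0.005) of each marker gene in 13 lists, 1 row of 3 points per gene and 1 colour per replicate, with a dashed line at the threshold of 1 FPKM. The alveolar type 1 list lies mostly right of the line, the club, basal, endothelial, immune and erythroid lists lie mostly left of it, and points of the 3 replicates overlap for most genes above the line.

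Transcription factors of the lung epithelium gave a mixed profile. Of 18 factors 8 (44.4%) were expressed, near the 46.2% of nuclear protein-coding genes, with a list median of 1.06 FPKM. Nkx2-1 had 25.02, 27.0 and 25.2 FPKM and Gata6 30.4, 32.0 and 33.2 FPKM, and for both the highest library was at most 1.09-fold above the lowest. With merged exons Gata6 had 15.6 FPKM, so the order of this pair depends on the length used. The pioneer factors Foxa2 and Foxa1 had 12.9 ± 1.01 and 10.2 ± 0.589 FPKM, and Cebpa, a factor of type 2 cell maturation, had 6.47 ± 0.916 FPKM. Foxp1 had 8.74, 2.75 and 8.63 FPKM, with replicate 2 far below the other two. The airway factor Sox2 and the distal factor Elf5 had 0 counts. Grhl2, Ehf and Elf3, which are active in most epithelia, stayed at or under 11 counts. Of 39 Hox genes 7 were expressed, all in the A and B clusters, among them Hoxb9 with 4.16 ± 0.185 FPKM and Hoxa5, which is needed for lung development, with 3.87 ± 0.299 FPKM.

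Epithelial structure genes split in the same way. Of 21 adhesion and keratin genes 9 (42.9%) were expressed, near the 46.2% of nuclear protein-coding genes. The keratins Krt19 with 202, 247 and 231 FPKM and Krt8 with 118, 127 and 121 FPKM stood far above the rest. Krt18, the usual partner of Krt8 in simple epithelia, had 21, 8 and 2 counts and 0.432 FPKM, and 0.720% of its 50-base stretches occur in another gene. Of all 51 keratin genes only Krt19, Krt8 and Krt80 were expressed. The junction genes Tjp1, Jup and Dsp had 24.5 ± 3.48, 23.6 ± 1.55 and 10.6 ± 1.48 FPKM. E-cadherin, Cdh1, was at 6.35, 6.57 and 6.26 FPKM, and occludin (Ocln) was at 3.86 ± 0.471 FPKM. The epithelial adhesion molecule Epcam had 22, 2 and 5 counts and the lung claudin Cldn18 had 0. Of 25 claudins only Cldn3 (4.23 ± 0.386 FPKM) and Cldn12 were expressed.

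Several mesenchymal genes were expressed beside these. Of 21 genes 8 (38.1%) passed, against 46.2% of nuclear protein-coding genes. The proteoglycan decorin, Dcn, had 462, 500 and 436 FPKM and rank 64 of all genes, above every keratin on the deposited scale and under Krt19 (285 FPKM) with merged exons, where it had 166 FPKM. Vimentin, Vim, had 89.9 ± 3.48 FPKM, or 148 FPKM with merged exons, and fibronectin, Fn1, 18.1, 11.6 and 14.6 FPKM. N-cadherin, Cdh2, had 5.20 ± 0.438 FPKM, close to Cdh1. The EMT factors Zeb1, Snai1 and Twist1 had 2.59 ± 0.358, 2.38 ± 0.645 and 2.18 ± 0.178 FPKM, and Snai2 at most 3 counts. Smooth muscle actin, Acta2, had 15, 13 and 15 counts. Of 11 laminin chains 5 (45.5%) and of 25 integrin subunits 9 (36%) were expressed, against 46.2% of nuclear protein-coding genes. The family medians were 0.0828 and 0.0990 FPKM, and the highest members are given with that of the collagens. Col4a1 had 75.5 ± 6.62 FPKM, the laminin chains Lamb2, Lama5 and Lamc1 had 69.7 ± 4.39, 46.2 ± 6.91 and 40.6 ± 4.96 FPKM, and the integrin chain Itgb1 had 266 ± 3.96 FPKM. Of 44 collagen genes 12 (27.3%) were expressed, 6 of them type IV chains. The fibrillar collagen Col1a2 had 1.02 FPKM in replicate 1 and under 0.06 FPKM in the others.

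Cell cycle genes were expressed without exception. All 17 genes of the proliferation list passed, with a median of 54.8 FPKM, and 16 were above the median of the expressed genes. Topoisomerase Top2a had 211, 226 and 226 FPKM and the proliferation antigen Mki67 178, 147 and 176 FPKM. The replicative helicase subunits Mcm2 to Mcm7 lay between 52.5 and 131 FPKM. All 10 genes of the p53 and RB list were expressed. The locus of p16 and p19ARF, Cdkn2a, reached 278, 331 and 271 FPKM and rank 95, against 19.05 ± 1.95 FPKM for Trp53 and 9.34 ± 0.371 FPKM for the p53 target Cdkn1a. Large T antigen is known to bind the p53 and RB proteins, and its own RNA is not among the genes of the table. Within the TGF-beta list 9 of 10 genes (90%) were expressed, against 46.2% of nuclear protein-coding genes. The highest were the receptor Tgfbr2 (57.9 ± 3.77 FPKM, or 33.8 FPKM with merged exons) and the ligand Tgfb3 (36.0 ± 0.989 FPKM).

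Of 6 NR4A and RXR receptors, the nuclear receptors around the study's question, 3 (50%) were expressed, against 46.2% of nuclear protein-coding genes. Nr4a1, the orphan nuclear receptor that the study overexpressed in other cultures, had 10.04, 12.4 and 10.6 FPKM in the vector controls from 428, 510 and 463 counts. Its relatives Nr4a2 and Nr4a3 had 1.02 ± 0.202 and 0.0317 ± 0.00480 FPKM. Of the RXR receptors, with which NR4A1 can pair, Rxrb had 13.7 ± 1.51 FPKM, Rxra 4.18 ± 0.252 FPKM and Rxrg 0 counts. Among 11 ErbB genes 4 (36.4%) were expressed, against the same 46.2%. Erbb2 had 23.5 ± 0.352 FPKM and Erbb3 11.2 ± 1.07 FPKM, while Egfr, the receptor of most ligands of the family, had 125, 65 and 115 counts or 0.481 ± 0.143 FPKM and Erbb4 had 0. Of the ligands, Hbegf had 13.1 ± 1.42 FPKM (6.42 FPKM with merged exons) and Btc 1.12 ± 0.0363 FPKM, and Ereg had 0, 0 and 2 counts. Of 19 inflammatory receptors and sensors 11 (57.9%) passed, against 46.2% of nuclear protein-coding genes. The highest were the TNF receptor Tnfrsf1a (48.2 ± 2.15 FPKM) and the interferon gamma receptor chain Ifngr2 (29.96 ± 1.03 FPKM). The endotoxin receptor Tlr4 had 0.827 ± 0.0700 FPKM and its coreceptors Cd14 and Ly96 had 3.54 ± 0.787 and 0.858 ± 0.117 FPKM. Of 19 genes in the RT-qPCR list, 11 (57.9%) were expressed, against the same 46.2%.

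Genes of fluid transport were partly expressed. Of 11 genes 6 (54.5%) passed, against 46.2% of nuclear protein-coding genes. The water channel Aqp1 had 56.0 ± 3.83 FPKM. The chloride channel Ano1 had 58.3, 57.1 and 91.0 FPKM, with replicate 3 above the others. Of the epithelial sodium channel, the alpha subunit Scnn1a had 6.21 ± 0.114 FPKM, or 16.6 FPKM with merged exons, whereas the beta subunit Scnn1b had 0 counts and the gamma subunit Scnn1g 1, 1 and 3. Cftr was counted 39, 23 and 17 times.

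Gene families taken by symbol, chosen after their values were seen, were mostly carried by a few members. Of all nuclear protein-coding genes 46.2% were expressed, and the S100 (50%) and forkhead (43.2%) families below were near that share. Of 10 frizzled receptors, which bind Wnt ligands, 8 were expressed, led by Fzd6 with 42.4 ± 1.57 FPKM and Fzd2 with 33.7 ± 1.38 FPKM. Of 19 Wnt ligands only Wnt7a (17.61 ± 0.407 FPKM) and Wnt9a (2.36 ± 0.197 FPKM) passed. Among 19 SOX factors Sox4 had 40.1 ± 2.94 FPKM and Sox12 8.87 ± 0.850 FPKM, and no other was expressed. Of 17 Kruppel-like factors 11 were expressed, led by Klf4 with 44.3 ± 1.89 FPKM, and of 44 forkhead factors 19, among them Foxk2 with 33.5 ± 1.33 FPKM and the mitotic factor Foxm1 with 25.9 ± 0.158 FPKM. Of 16 S100 proteins 8 were expressed, led by S100a11 with 218 ± 33.6 FPKM. The metalloproteinase inhibitor Timp2 stood at 192 ± 3.01 FPKM, while of 23 matrix metalloproteinases 3 passed, with Mmp11 the highest at 22.4 ± 1.34 FPKM. Of 38 chemokine ligands 2 were expressed, Cx3cl1 with 4.12 ± 0.232 FPKM and Ccl25 with 1.95 ± 0.0752 FPKM. Of 11 aquaporins 2 were expressed.

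Among the long non-coding RNAs examined, Malat1 with 125, 91.1 and 128 FPKM and Xist with 137, 73.3 and 114 FPKM were the highest, and for both replicate 2 was the lowest. Of the list of Xist and 4 Y-linked genes only Xist was expressed. Xist silences an X chromosome in cells with more than 1, and the Y-linked genes Ddx3y, Eif2s3y, Kdm5d and Uty had 15 counts in all in replicate 1, 0 in replicate 2 and 1 in replicate 3. Of the 9 genes in the list of long non-coding RNAs 5 were expressed, and H19 and Meg3 had 8 and 5 counts in replicate 1 and 0 elsewhere. RNAs without a poly(A) tail were nearly absent. Of 70 histone cluster genes 5 were expressed, the highest at 5.02 FPKM, although the cells expressed all 17 proliferation genes. These histone genes share a median of 49.6% of their 50-base stretches with other genes, so their single levels are uncertain. The RNA components Rmrp, Rpph1 and Terc had at most 9 counts, and of the 9 genes in that list that the table holds, the histones Hist1h1c and Hist1h2bc were expressed.

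The promoters of expressed and unexpressed genes differed in base composition. RefSeq promoters of GRCm38.p6 were matched by symbol to 15830 of the 21620 nuclear protein-coding genes (73.2%), and the 250 bases before the first listed start were read. The CpG ratio, the number of CG pairs divided by the number that the C and G content gives, was above 0.6 for 11.5% of 4933 promoters of genes with 0 counts and for 35.1% of 3158 promoters of genes counted under the threshold. The share was 71.6% of 4324 promoters at 1 to 10 FPKM, 78.9% of 3203 at 10 to 100 FPKM and 78.3% of 212 at higher levels, against 47.2% of all matched promoters. GGGCGG, a GC box, occurred on either strand in 16.1% of the promoters of genes with 0 counts and in 62.7% of those above 100 FPKM, against 44.6% of the matched promoters and 32.9% of all 27025 promoters of the table. TATAAA within 50 bases before the start, on the gene's strand, was found in 6.89% of promoters of genes with 0 counts, 0.968% at 10 to 100 FPKM and 3.77% above 100 FPKM, in 3.44% of the matched promoters and in 2.88% of all. CCAAT on either strand was found in 35.6% and 42.9% of the lowest and highest group, and CTCAAG on either strand, which holds the CAAG core that NKX2-1 is known to bind, in 13.9% and 13.2%. The shares of these motifs in the matched promoters were 36.0% and 13.03%, and in all promoters 34.5% and 13.6%. A match of letters is a description and not a measured site.

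These promoters are shown for a housekeeping gene, a cell cycle gene, and 1 expressed and 1 silent surfactant gene, with every match of the searched motifs, on the strands given above, in capitals. Top2a holds 6 CCAAT matches and 1 GGGCGG match, Eef1a1 2 GGGCGG matches, Sftpb 2 CTCAAG matches, and Sftpa1 1 CTCAAG match and a TATAAA that begins 30 bases before the start. Sftpb was expressed and Sftpa1 had 0 counts, although both promoters hold the CTCAAG letters. The order is Eef1a1 (chr9:78481725-78481974, minus strand), Top2a (chr11:99024190-99024439, minus strand), Sftpb (chr6:72304360-72304609, plus strand) and Sftpa1 (chr14:41131538-41131787, plus strand).
Eef1a1: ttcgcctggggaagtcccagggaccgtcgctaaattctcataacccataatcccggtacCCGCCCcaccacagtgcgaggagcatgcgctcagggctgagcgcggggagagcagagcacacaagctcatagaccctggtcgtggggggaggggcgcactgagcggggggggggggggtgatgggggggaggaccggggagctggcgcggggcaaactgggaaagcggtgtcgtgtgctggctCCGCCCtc
Top2a: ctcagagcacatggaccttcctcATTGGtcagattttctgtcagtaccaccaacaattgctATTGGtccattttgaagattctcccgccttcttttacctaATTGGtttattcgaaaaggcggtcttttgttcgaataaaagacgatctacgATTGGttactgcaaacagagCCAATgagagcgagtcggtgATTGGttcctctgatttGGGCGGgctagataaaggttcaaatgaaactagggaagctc
Sftpb: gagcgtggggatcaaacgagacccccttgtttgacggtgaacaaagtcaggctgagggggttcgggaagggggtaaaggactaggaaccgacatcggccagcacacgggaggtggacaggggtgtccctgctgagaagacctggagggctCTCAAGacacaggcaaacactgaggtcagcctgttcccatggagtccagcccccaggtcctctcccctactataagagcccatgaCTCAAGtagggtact
Sftpa1: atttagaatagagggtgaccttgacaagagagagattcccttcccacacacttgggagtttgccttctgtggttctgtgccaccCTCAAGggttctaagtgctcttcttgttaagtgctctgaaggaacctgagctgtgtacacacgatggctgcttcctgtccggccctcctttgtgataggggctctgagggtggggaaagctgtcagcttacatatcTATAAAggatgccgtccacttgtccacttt

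The spread among the 3 libraries was small for most genes. Over 12872 genes with a mean count of at least 10, the common biological coefficient of variation, the spread beyond counting error, was 14.0% with edgeR. The median coefficient of variation was 29.0% for genes with a mean count of 10 to 30, 8.46% for 100 to 1000 and 6.42% for 1000 to 10000, where counting error alone gives 24.3%, 4.78% and 2.31%. Replicates 1 and 3 were the closest pair, with a median absolute log2 difference of 0.0989 and 84.7% of genes within 1.25-fold. Replicate 2 differed from replicates 1 and 3 by medians of 0.18 and 0.16. No pair differed as little as counting error gives, so all 3 were kept as separate samples. By a chi-square test of each gene's counts against the library sizes with Benjamini-Hochberg adjustment, 6144 of the 12872 genes (47.7%) differed by more than counting error, and 615 genes (4.78%) also had a highest library at least 2-fold above the lowest. This test compares libraries and not conditions. Without replicate 1 the count of such uneven genes fell to 291, and without replicate 2 to 332. It fell less without replicate 3. A fall is built in, since the ratio is then taken over fewer libraries. Replicate 1 was the highest library for 345 of the 615 genes, and replicate 2 was the lowest for 310.

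**Figure D4:**
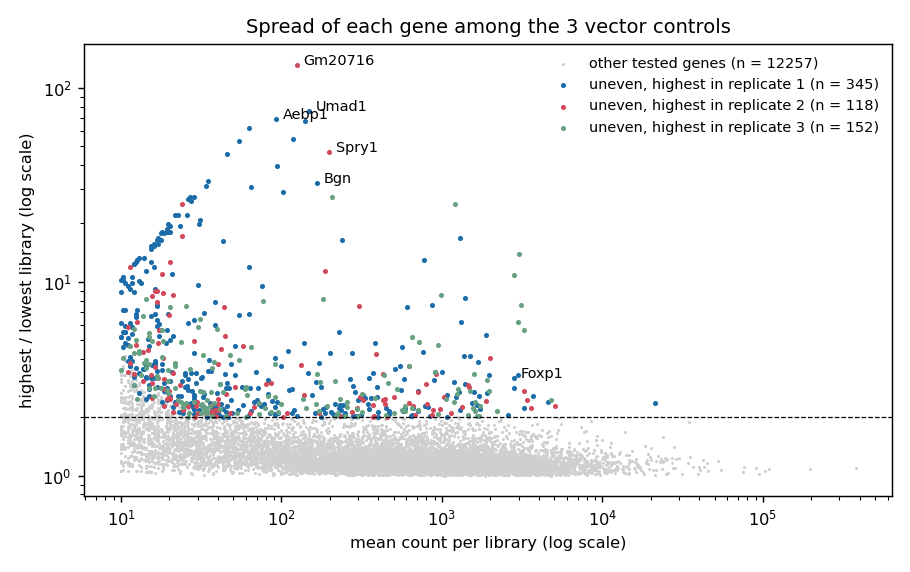
Ratio of the highest to the lowest library (log scale, scaled by library size, counts under 3 set to 3) against the mean count (log scale) for 12872 genes, with the 615 uneven genes coloured by their highest library and a dashed line at 2-fold. Points high above the line are mostly blue, that is, highest in replicate 1, and genes with larger counts lie closer to 1.

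Among the 615 uneven genes, 43 were at least 10-fold higher in replicate 1 than in both others, against 3 for replicate 2 and 0 for replicate 3. Most of the leading genes code for extracellular matrix. The proteoglycan Bgn was counted 472, 15 and 15 times, the fibulin Fbln2 335, 6 and 12 times, the carboxypeptidase-like protein Aebp1 270, 5 and 4 times, the basement membrane linker Nid1 269, 7 and 7 times and the collagen crosslinking enzyme Lox 181, 8 and 6 times. Col6a3 with 156, 8 and 0 counts, Col1a2 with 284, 14 and 10 counts, Fmo2 with 181, 5 and 1 counts, Dpep1 with 133, 2 and 3 counts, Gpnmb with 97, 5 and 2 counts and Efemp1 with 96, 0 and 6 counts had the same form. In the mesenchymal list 7 of 18 tested genes were uneven, against 4.78% of all genes tested. Several of the 18 had low counts, where 20.5% (mean count 10 to 30) and 11.5% (30 to 100) of all genes tested were uneven. Replicate 1 was the highest for 12 of the 18, against 32.7% of all genes tested. The fibroblast surface marker Thy1 had 25, 0 and 0 counts, the receptors Pdgfra and Pdgfrb had 92, 12 and 12 and 81, 8 and 4, and Postn had 43, 1 and 2. Among the abundant mesenchymal genes, Dcn with 16586, 17269 and 15970 counts and Vim with 11696, 12136 and 12213 did not share this. Fn1 was highest in replicate 1 by a smaller ratio of 1.58, with 5631, 3464 and 4625 counts. Together the 43 genes made up 0.0246% of the counts of replicate 1. Some markers of other cell types were also highest in replicate 1, but their lists as a whole were mixed. Replicate 1 was the highest for 3 of 14 tested adhesion and keratin genes and 3 of 11 tested lung epithelial factors. It was the highest for 2 of 8 tested type 2 genes and 3 of 3 tested goblet cell genes, against 32.7% of all genes tested. Epcam had 22, 2 and 5 counts, Krt18 21, 8 and 2, Cldn7 11, 0 and 0, Ehf 9, 0 and 0, Agr2 8, 0 and 0 and Lyz2 12, 1 and 1. Olfm4 with 38, 0 and 0 counts and Pigr with 37, 0 and 0 counts, both genes of secretory epithelia and named after their values were seen, had the same form, and the Y-linked genes had 15, 0 and 1. The part of RNA from other cells in this pattern was not tested. The mean of Col1a1 was 1.48 FPKM with and 0.957 FPKM without replicate 1.

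Other uneven genes were low in 1 or 2 libraries only. Gm20716 had 0, 375 and 0 counts, Umad1 233, 0 and 211, RP23-325D10.3 263, 152 and 4, and the receptor tyrosine kinase antagonist Spry1 279, 310 and 7. Of the 615 genes, 167 (27.2%) overlap another gene on the same strand, as do 13.1% of all genes tested. For 23 of the 167, the most counted overlapping partner was uneven too. Umad1 and its partner Glcci1, which had 223, 503 and 383 counts, had sums of 456, 503 and 594 counts. Adnp, the partner of Gm20716, had 3699, 3212 and 4097 counts. Of the 50-base stretches of these genes, 99.1% (Gm20716), 99.2% (Umad1) and 98.3% (RP23-325D10.3) also occur in another gene, and none of those of Spry1 do. Among protein-coding genes with 75% to 100% of such stretches 22.5% of the tested genes were uneven, against 3.77% of genes with none.

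Gene length went with the deviation of replicate 2. In 11095 genes with a mean count of at least 50 and counts in all libraries, split by merged exon length into 8 groups, the median log2 difference of replicate 2 from the mean of the others was 0.18 in the shortest group (1387 genes, up to 2007 bases) and -0.24 in the longest (1386 genes, from 9326 bases). Replicate 1 went from -0.101 to 0.145 and replicate 3 from -0.0788 to 0.0988. The deviations of the 3 libraries sum to 0 for each gene. Replicates 1 and 3 together therefore mirror replicate 2, while the split between them is not fixed. By the span of the gene in the genome, replicate 2 went from 0.17 to -0.19. Replicate 2 was the highest library for 40.1% of all genes tested and for 77.2% of the shortest group, and the lowest for 39% and 9.73%. It was the highest for 75 of 80 tested ribosomal protein genes, 40 of 44 genes of NADH dehydrogenase subunits and assembly factors and 32 of 37 proteasome subunits. Ribosomal proteins summed to 24898, 29925 and 24832 FPKM in replicates 1, 2 and 3. Replicate 2 was the lowest for 18 of 27 tested collagen genes, against 39% of all genes tested and 78.7% of the longest group. The long transcripts Foxp1 (3660, 1110 and 3687 counts) and Xist (44234, 22768 and 37551 counts) were lowest in replicate 2 too. Both differed by more than the longest group's median of -0.24 in log2, with a highest library 3.20-fold and 1.89-fold above the lowest. The share of uneven genes was 1.44% in the shortest and 4.04% in the longest group.

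**Figure D5:**
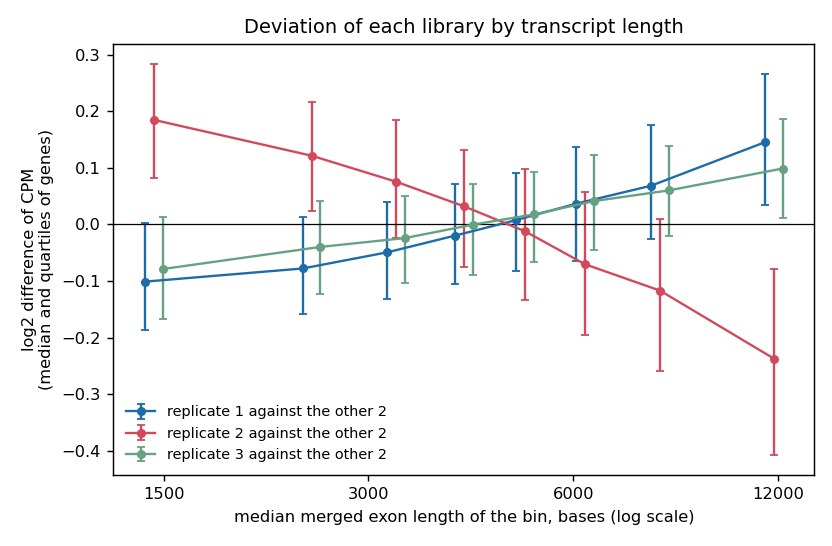
Median log2 difference of CPM between each replicate and the mean of the other libraries (vertical, bars are the quartiles over genes) against the median merged exon length of 8 groups of about 1387 genes (horizontal, log scale). Replicate 2 goes from 0.18 to -0.24 as length grows. The lines of replicates 1 and 3 go the other way by smaller amounts, and the 3 deviations of a gene sum to 0.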

How the data were processed

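RNA of MLE-12 cells with the pCMV-SPORT6 vector was sequenced on a NovaSeq in 3 libraries. The paper names a strand-specific total RNA kit, while the labels describe isolation of mRNA. The submitters' processing notes name HISAT2 2.0.4 and the build GRCm38.p4. The counting program, annotation and filters are not given in the sources used here. For each gene the authors deposited the read count of every library and its FPKM. The deposited FPKM equalled the count divided by the library total and by a gene length that differed between libraries by at most 0.00441% over 11778 genes. Among the deposited symbols 27 had been turned into dates and were not used by name.

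Biotypes, merged exon lengths and 50-base stretches shared between genes were computed from GENCODE M21, which lists 34344 of the identifiers. Counts were scaled with TMM factors of edgeR 4.0.16 in R 4.3.3, and DESeq2 1.42.0 size factors were an alternative. The common dispersion was fitted with an intercept only. Uneven genes had an adjusted p under 0.05 from a chi-square test with 2 degrees of freedom (Python 3.11.15, scipy 1.17.1) and a highest library at least 2-fold above the lowest. The steps were tested on counts simulated with a spread of at most 10% and no trend with gene length. These libraries had a spread of 14.0%, so the rate of false calls at their own spread was not measured. The part described and the gene lists were chosen with earlier results of these data known, and families taken by symbol were added after the values had been seen. The text names the list genes, the 20 protein-coding genes with the highest FPKM, the 10 most counted genes, the 15 uneven genes with the largest ratio and genes of the study's RT-qPCR, and others only as stated or as members of a family. With 3 samples that may not be separate cultures, test results measure only the spread between these samples. Some listed genes are not reported here by name.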

Additional observations from a re-analysis of the deposited data

How the results depend on the processing

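The count of expressed genes lay between 9276 and 12413 under an FPKM threshold of 0.5 or 2, mean FPKM, TPM, 10 counts in every library or merged exon lengths, the last chosen after seeing the data. Merged exon lengths moved the mean FPKM of 191 named genes by more than 1 SD. The 100 most counted genes held 42.1% of the summed FPKM, and 14.0% of the counts when mitochondrially encoded genes were left out. The biological coefficient of variation was between 11.0% and 16.3% with each library left out, 14.0% with median-ratio size factors or library totals, 14.2% from a mean count of 1 and 12.9% from 100. The number of uneven genes was 974 from a mean count of 1, 219 from a mean count of 100, 6144 without the fold threshold and 200 at 4-fold, where the settings themselves test or keep other numbers of genes, and between 291 and 459 with each library left out. It was 613 to 670 under library totals, median-ratio size factors and an unadjusted p. Under alternative thresholds, counting rules, lengths and left-out libraries, the number of expressed members of a list or family moved by over 1.5 times in 27 of 343 cases, 15 of them where 10 counts replaced the FPKM threshold. Changes under 3 counts cannot be seen at this depth. No paired analysis was possible because only 1 group was used.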
